A study of Saccharomyces cerevisiae with 12 samples.

Results

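The 5′ interior of the 25S rRNA gene was taken from a NET-seq study of RNA polymerase I (Pol I) in budding yeast treated with BMH-21. It was defined by position alone, as nt 31 to 1698 of 25S, which is the first 50% of the rRNA without its first 30 nt, and it holds 1668 of the 6858 positions of the 35S gene. In assembly R64 it lies at chrXII:462621-464288 on the minus strand, inside RDN25-2 (YNCL0021C), an exon of mature rRNA within the 35S unit RDN37-2 (YNCL0020C). Its last 51 positions also overlap the hypothetical open reading frame YLR154C-G on the same strand. The data comprise 12 libraries, with BMH-21-treated and vehicle-treated yeast at 2 min and at 16 min and 3 libraries in each of the 4 groups. All groups shared 1 strain, in which the Pol I subunit Rpa135 carried an HA and histidine tag and the rpa190Δ deletion was covered by RPA190 on a plasmid, and all were grown at 30 °C to an OD600 of 0.3.

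Pol I transcribes the rDNA as 1 long precursor, the 35S pre-rRNA, from which the spacers are removed to leave the 18S, 5.8S and 25S rRNAs. The 25S rRNA is the main RNA of the large ribosomal subunit, and its 5′ domains are made first, while the peptidyl transferase centre lies in its 3′ domains. BMH-21 is a small molecule that intercalates into DNA and inhibits Pol I. In NET-seq, Pol I is pulled down with its nascent RNA and the RNA 3′ end is mapped, so that a read end marks the last nucleotide that was added. Mature 25S rRNA that comes down with Pol I adds read ends to the same positions, and the share of the signal that it makes up was not measured here.

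Each library was used on 2 scales. On the 35S scale a value is in RPM, as deposited, in which a library's values over the whole 35S gene sum to 1000000. On the region scale the library is rescaled so that the 1668 positions sum to 1000000, in units called region RPM, and a position with an even share would have 599.5 region RPM. Both scales give shares of a library, so fewer Pol I complexes per cell and fewer cells can neither be seen nor told apart. The libraries held 1054374 to 10480384 reads on the 35S gene and 268701 to 2680818 in the region, with a median of 116 to 1190 reads at a region position. The spacers, which no mature rRNA contains, held 1.45% to 3.43% of the 35S reads in BMH-21-treated libraries and 4.95% to 5.82% in vehicle-treated libraries at 2 min. At 16 min they held 0.56% to 0.93% in BMH-21-treated and 3.73% to 4.75% in vehicle-treated libraries. BMH-21 replicate 1 at 2 min stood apart from its group. Across the region's positions its Spearman correlation was 0.917 with replicate 2 and 0.949 with replicate 3, which had 0.977 with each other. The lowest pair of vehicle libraries had 0.965. With vehicle libraries, BMH-21 replicate 1 had 0.894 to 0.942, and BMH-21 replicates 2 and 3 had 0.934 to 0.952.

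The highest positions of the region show what a peak of signal looks like here, from nascent and mature RNA together. The 5 highest by the mean of all 12 libraries are printed with 15 nt on either side. The capital marks the RNA 3′ end. It is called the last nucleotide added throughout, which holds for nascent RNA only. The sequences are RNA, 5′ to 3′, from RefSeq R64.
nt 247, chrXII:464057-464087: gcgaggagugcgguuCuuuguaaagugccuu
nt 1022, chrXII:463282-463312: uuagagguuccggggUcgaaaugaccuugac
nt 1178, chrXII:463126-463156: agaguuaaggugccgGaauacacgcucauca
nt 1098, chrXII:463206-463236: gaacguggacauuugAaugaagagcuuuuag
nt 687, chrXII:463617-463647: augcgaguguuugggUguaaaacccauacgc

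A second set is printed because, among positions with a mean of at least 10 RPM that were called lower with BMH-21 at both times, these 5 had the largest losses.
nt 201, chrXII:464103-464133: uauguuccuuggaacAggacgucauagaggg
nt 1413, chrXII:462891-462921: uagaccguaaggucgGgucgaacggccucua
nt 611, chrXII:463693-463723: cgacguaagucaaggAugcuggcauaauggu
nt 95, chrXII:464209-464239: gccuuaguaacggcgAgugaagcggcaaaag
nt 285, chrXII:464019-464049: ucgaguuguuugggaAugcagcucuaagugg

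The first question was how much of the 35S signal lay in the region. BMH-21-treated libraries held 26.8% ± 0.82 (SD, n = 3) of their 35S reads there at 2 min, against 26.7% ± 0.44 in vehicle-treated libraries. At 16 min the shares were 24.9% ± 0.65 with BMH-21 and 24.95% ± 0.56 with vehicle. The groups overlapped at both times, and the mean log2 difference over both times was 0.0012 (exact permutation test within time, two-sided, 400 arrangements, p = 0.965). The denominator matters here: as a share of the gene regions, without the spacers, the difference was -0.048 (p = 0.025, same exact test), and as a share of 25S it was -0.085 (p = 0.005). The 3′ interior of 25S, the remaining 50% of the rRNA without its last 30 nt, did separate. It held 38.5% ± 0.65 with BMH-21 and 34.9% ± 0.62 with vehicle at 2 min, and 39.3% ± 0.95 with BMH-21 and 35.97% ± 0.93 with vehicle at 16 min.

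Set against the 3′ interior, the 5′ interior was lower with BMH-21 at both times, and at 16 min this difference rested largely on the highest positions. The log2 ratio of the 5′ to the 3′ interior was -0.59, -0.46 and -0.52 in BMH-21 replicates 1 to 3 and -0.37, -0.35 and -0.43 in the vehicle replicates at 2 min. At 16 min it was -0.66, -0.73 and -0.59 with BMH-21 and -0.47, -0.58 and -0.54 with vehicle. All 3 BMH-21 libraries lay below all 3 vehicle libraries at each time. The ratio fell by 0.14 at 2 min and by 0.13 at 16 min on the log2 scale, and the mean change of the 2 times was -0.13 (p = 0.005 in a two-sided exact permutation, the lowest value possible with 400 arrangements). Within 1 time the smallest p that 3 against 3 allows is 0.1, and each time gave that value. Without the 10 highest positions of each interior, the change was -0.15 at 2 min (exact permutation p = 0.1) but -0.029 at 16 min (p = 0.5), and -0.088 for the 2 times together (p = 0.025). The spacer shares given above moved with treatment as well, and their part in this ratio was not tested.

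**Figure D1:**
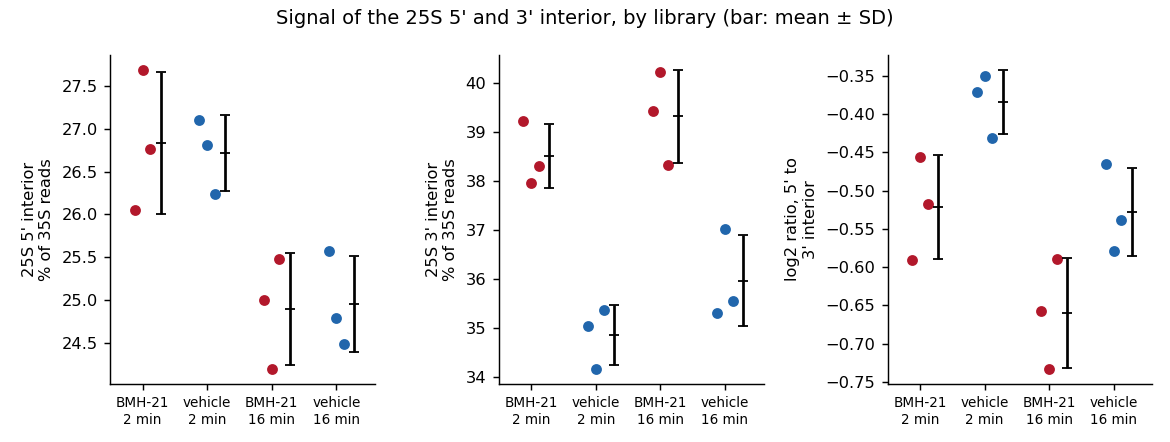
Share of the 35S reads in the 5′ interior of 25S (left) and in the 3′ interior (middle), in percent, and the log2 ratio of the 2 (right), with 1 point per library and the mean ± SD of 3 libraries beside the points. The axes do not start at 0. The 5′ shares overlap between treatments, while the 3′ shares are higher and the ratios lower in every BMH-21 library than in any vehicle library of the same time.

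Set against the 18S interior, the difference was not alike at the 2 times. The log2 ratio of the region to the 18S interior was 0.18 ± 0.049 with BMH-21 and 0.033 ± 0.016 with vehicle at 2 min (SD, n = 3 each), with no overlap. At 16 min it was -0.13 ± 0.043 with BMH-21 and -0.14 ± 0.0057 with vehicle, and the groups overlapped. Over both times the ratio was 0.082 higher with BMH-21 (exact permutation test, two-sided, p = 0.035), and without BMH-21 replicate 3 at 16 min it was 0.070 higher (p = 0.070). Within the region, the first 50% of positions against the last 50% gave log2 ratios of -0.19 ± 0.030 with BMH-21 and -0.21 ± 0.012 with vehicle at 2 min, and of -0.084 ± 0.032 with BMH-21 and -0.10 ± 0.037 with vehicle at 16 min. Neither time separated the groups (p = 0.29 for both times in a two-sided exact permutation).

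The profile was uneven and largely shared by the treatments. Between the highest position and the lowest the mean level differed 535-fold. Of the 42 highest positions (the top 2.5%), 34 were shared by BMH-21 and vehicle at 2 min and 36 at 16 min, and 19 were in the top 42 of all 4 groups. Across the 1668 positions the Spearman correlation of a BMH-21 library with a vehicle library was 0.936 ± 0.018 at 2 min and 0.90 ± 0.026 at 16 min (SD over 9 pairs). Pairs of replicates had 0.948 ± 0.030 for BMH-21 and 0.976 ± 0.013 for vehicle at 2 min, and 0.937 ± 0.013 for BMH-21 and 0.915 ± 0.036 for vehicle at 16 min. Neighbouring positions share base composition, so these values describe likeness and carry no test.

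**Figure D2:**
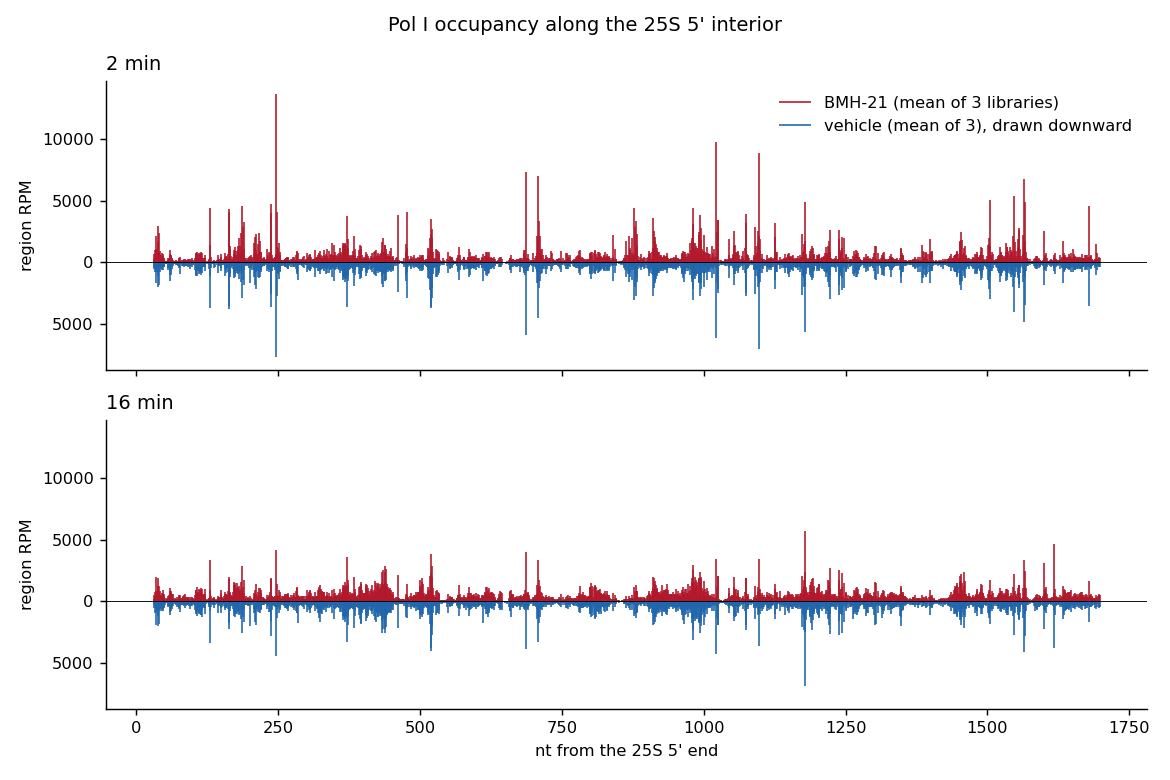
Mean level at each position in region RPM, against the distance from the 25S 5′ end in nt, with BMH-21 drawn upward and vehicle downward (mean of 3 libraries each). The same positions peak in both treatments. At 2 min nt 247 reaches 13649 with BMH-21 and 7652 with vehicle, and at 16 min nt 1178 is highest in both, at 5735 with BMH-21 and 6883 with vehicle.

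The highest position was nt 247, a cytidine. It had 16949, 11012 and 12986 region RPM in BMH-21 replicates 1 to 3 at 2 min, and 5795, 7693 and 9470 in the vehicle replicates. The groups did not overlap, and the log2 fold change was 0.84 ± 0.24 (SE), which just missed the threshold on the region scale (limma adjusted p = 0.051) and passed on the 35S scale (adjusted p = 0.032). At 16 min it had 4185, 4308 and 4027 with BMH-21 and 4710, 3558 and 5107 with vehicle, which overlap.

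The next highest position, the uridine at nt 1022, rose at 2 min. It had 10568, 9082 and 9629 region RPM with BMH-21 and 5606, 5995 and 6861 with vehicle, a log2 fold change of 0.67 ± 0.14 (limma adjusted p = 0.025, 0.012 to 0.12 over 15 alternatives). At 16 min its BMH-21 libraries had 4028, 3329 and 2888 and its vehicle libraries 4239, 3999 and 4602. A pair of other positions among the 10 highest rose at 2 min. The uridine at nt 1564 had 6779 ± 308 with BMH-21 and 4880 ± 444 with vehicle (log2 fold change 0.48, limma adjusted p = 0.041), and the adenosine at nt 709 had 7011 ± 1100 with BMH-21 and 4555 ± 331 with vehicle (0.61, adjusted p = 0.038). The remaining 7, nt 247 among them, did not pass on the region scale at 2 min. None of the 10 passed at 16 min. Together the 10 positions held 3.41% to 7.79% of the region's reads, depending on the library.

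The guanosine at nt 1178 and the uridine at nt 520 were the only 2 of the 10 highest positions whose mean at 2 min was lower with BMH-21 than with vehicle. At nt 1178 it was 4916 ± 1372 region RPM with BMH-21 and 5674 ± 279 with vehicle, with overlap, and it was the highest position of both groups at 16 min. At 2 min BMH-21 replicate 1 was lowest there, with 3442 against 6156 and 5152 in BMH-21 replicates 2 and 3.

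At 2 min the signal of BMH-21-treated libraries was gathered on fewer positions. The top 42 positions of a library held 21.7%, 17.3% and 18.5% of the region's reads in BMH-21 replicates 1 to 3 and 13.9%, 14.1% and 15.4% in the vehicle replicates. The fewest positions that held 50% of the reads numbered 220, 285 and 267 positions with BMH-21 and 348, 342 and 318 with vehicle. The groups did not overlap in either measure, with or without BMH-21 replicate 1. At 16 min the top 42 positions held 11.9%, 12.3% and 11.3% with BMH-21 and 12.2%, 11.8% and 12.9% with vehicle, which overlap. Over both times the difference in the top 42 share was 2.10 percentage points and did not pass (exact permutation test, two-sided, p = 0.085). The difference between the 2 times was not tested, since the deposited values of the 2 times were scaled in separate tables.

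The lowest stretch of the region is printed with 12 nt on either side because its signal stops and resumes sharply. It was chosen after its values were seen, and nt 645 to 656 are in capitals.
nt 633 to 668, chrXII:463651-463686: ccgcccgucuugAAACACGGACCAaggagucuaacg

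Of the 12 positions in capitals, 8 were among the 12 lowest of the region. They averaged 34.1 ± 12.2 region RPM with BMH-21 and 54.2 ± 11.4 with vehicle at 2 min (SD, n = 3 each), and 29.0 ± 8.55 with BMH-21 and 71.9 ± 4.12 with vehicle at 16 min. The stretch from nt 633 to 644 before them averaged 206 ± 49.8 with BMH-21 and 217 ± 17.9 with vehicle at 2 min, and 376 ± 51.6 with BMH-21 and 336 ± 30.96 with vehicle at 16 min. The trough was thus deeper with BMH-21 at 16 min, where its libraries had 32.7, 35.1 and 19.2 and the vehicle libraries 69.9, 69.1 and 76.6, without overlap, while at nt 633 to 644 the groups overlapped. As background, the adenosine at nt 645 of yeast 25S carries a methyl group at its N1 position in mature rRNA, added by Rrp8, and this mark blocks reverse transcription. Its part in the trough was not tested.

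The profile in windows of 100 nt showed similar high and low stretches in both treatments. An even window would hold 5.995% of the region's reads. The richest window at 2 min and at 16 min, nt 931 to 1030, held 9.55% ± 0.17 with BMH-21 and 8.40% ± 0.27 with vehicle at 2 min, and 8.97% ± 0.23 with BMH-21 and 8.92% ± 0.53 with vehicle at 16 min. The poorest window of full length, nt 1331 to 1430, held 3.25% ± 0.29 with BMH-21 and 4.07% ± 0.24 with vehicle at 2 min, and 3.24% ± 0.16 with BMH-21 and 3.44% ± 0.087 with vehicle at 16 min.

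At 2 min limma called 1 of the 17 windows lower and 2 higher on the region scale. Of the 75 windows over the whole 35S gene it called 30.7% lower and 16.0% higher on the same scale. The lower window was nt 1331 to 1430 (log2 fold change -0.32 ± 0.085 SE, adjusted p = 0.035). The higher windows were nt 931 to 1030 (0.19 ± 0.047, adjusted p = 0.034), which holds the peak at nt 1022, and nt 231 to 330 (0.17 ± 0.048, adjusted p = 0.039), which holds the peak at nt 247 and had 6.64% ± 0.18 with BMH-21 and 5.91% ± 0.16 with vehicle. With the 10 highest positions left out, 1 window was lower and 1 higher. The calls could be lost when 1 library was left out. Without vehicle replicate 1, 2 or 3, or without BMH-21 replicate 3, limma called 0 of the 17 windows. At an unadjusted p under 0.05 it still had 1 lower and 1 to 3 higher. At 16 min limma called 0 windows, 0 at an unadjusted p under 0.05 as well, where it called 21.3% of the 75 windows of the gene, all of them lower.

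**Figure D3:**
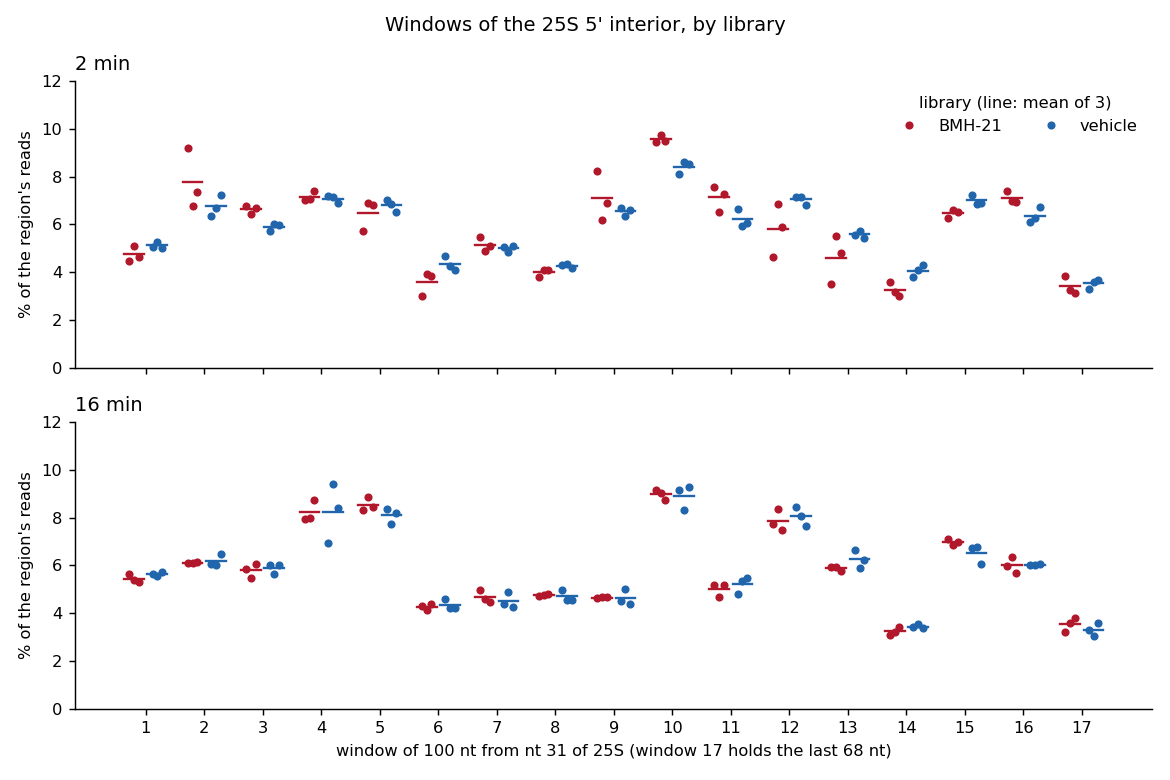
Share of the region's reads in each 100 nt window, in percent, by library, with BMH-21 left of vehicle and a line at the mean of 3 libraries. At 2 min window 10 (nt 931 to 1030) reaches 9.55% with BMH-21 and 8.40% with vehicle, and at 16 min no window passed limma's threshold.

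At single positions the drug was followed mostly by losses at 2 min. On the region scale limma called 178 of the 1668 positions lower (10.7%) and 45 higher (2.7%), with 0.05 as the limit of the adjusted p. Over the whole 35S gene the same test called 20.4% of 6746 positions lower and 2.58% higher, and this background includes the spacers, whose median log2 fold change was -1.59. Over the gene regions alone it called 11.2% of 5349 positions lower and 3.18% higher, close to the shares of the region. The median of the region was -0.22 and that of all 1668 positions of the 3′ interior -0.07. Both used the sum of the 5′ interior as scale. The 3′ value thus also carries the shift between the interiors, whose log2 5′ to 3′ ratio changed by -0.14 at 2 min. On the 35S scale 170 positions of the region were lower and 64 higher, against 23.4% lower and 3.56% higher over the gene. With median ratio scaling, which centres the typical position of the gene (region median 0.039), the split turned to 39 lower and 151 higher. The number of calls also changed when 1 library was left out. Without vehicle replicate 1, 2 or 3 limma called 0 region positions on the region scale, and without BMH-21 replicate 3 it called 5 lower and 0 higher. Without vehicle replicate 1, 2 or 3 the region median was still -0.19, -0.20 and -0.25. At an unadjusted limma p under 0.05, 250, 215 and 289 positions were then lower and 73, 66 and 89 higher, against 374 and 121 with all libraries. Leaving out BMH-21 replicate 1, which stood apart, gave 209 lower and 50 higher with a region median of -0.12. On the 35S scale leaving out vehicle replicate 1, 2 or 3 gave 60, 0 and 0 calls, and leaving out BMH-21 replicate 3 gave 45.

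At 2 min the positions called lower had lower levels than those called higher. The median level of the positions called lower was 76.0 RPM and of those called higher 424 RPM, against 106 RPM over the region. These levels come from the same libraries that gave the calls. Positions were also ordered by the vehicle level at 16 min, which the 2-min comparison does not use, and split into groups of 10%. The median log2 fold change at 2 min was -0.27 in the lowest 10% and 0.07 in the highest 10%. In each group between them it was negative, from -0.30 to -0.15, so the falls were not confined to low positions. The 178 lower positions formed 124 separate runs, the longest of 7 nt, and the 45 higher positions formed 30 runs. Runs of called positions depend on the threshold, so they do not give the width of the changes.

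**Figure D4:**
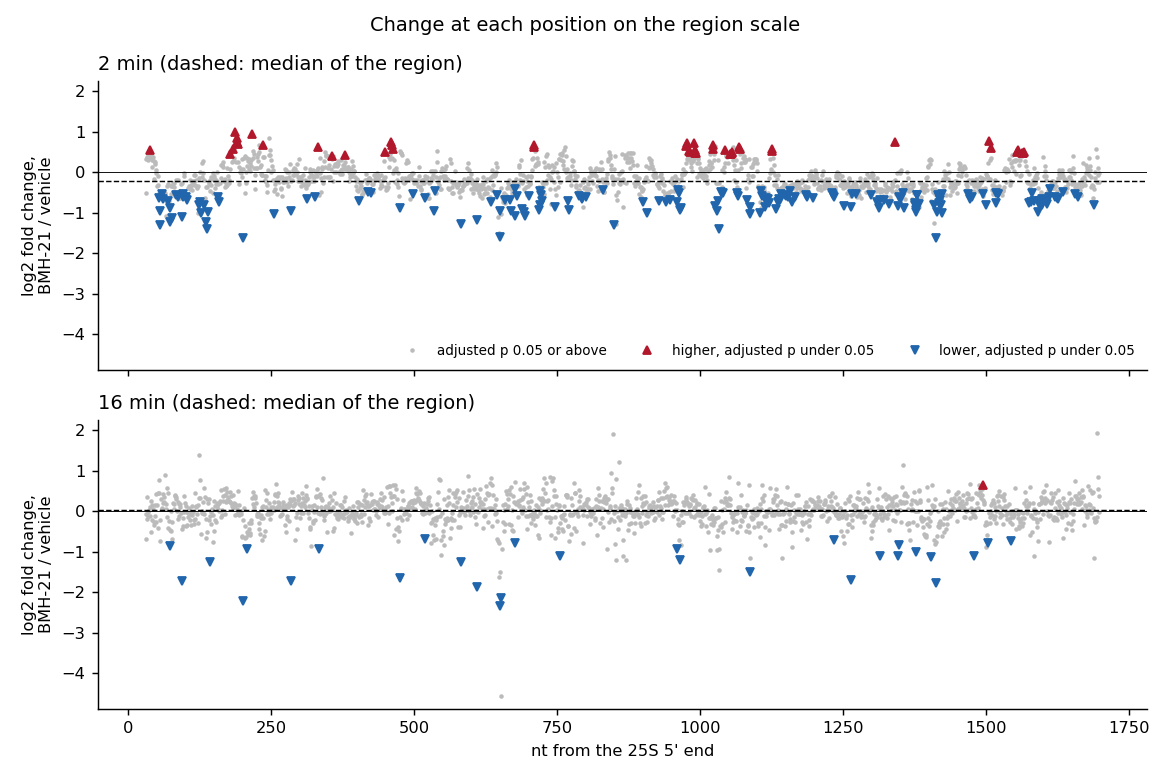
Log2 fold change of BMH-21 over vehicle at each of the 1668 positions on the region scale, against the distance from the 25S 5′ end in nt, with positions at an adjusted p under 0.05 as triangles. At 2 min 178 positions are lower and 45 higher, and at 16 min 29 are lower and 1 is higher.

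The positions most raised at 2 min included a close group near nt 200. The uridine at nt 188 had 3596, 2378 and 2694 region RPM with BMH-21 and 1141, 1528 and 1698 with vehicle (log2 fold change 0.99 ± 0.22, limma adjusted p = 0.030). The uridine at nt 217 had 2399 ± 393 with BMH-21 and 1247 ± 261 with vehicle (0.95, adjusted p = 0.027). The uridine at nt 191 had 3311 ± 718 with BMH-21 and 1834 ± 195 with vehicle (0.84, adjusted p = 0.030). All 3 were high positions that rose further, and none of them passed at 16 min. The cytidine at nt 1505 had 5020 ± 703 with BMH-21 and 2965 ± 527 with vehicle (0.77, adjusted p = 0.035), and the guanosine at nt 1340, a low position, had 340 ± 79.3 with BMH-21 and 198 ± 21.7 with vehicle (0.76, adjusted p = 0.039).

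The adenosine at nt 201 lies 10 nt after nt 191 and moved the other way. It had 788, 372 and 494 region RPM with BMH-21 and 1410, 1715 and 1800 with vehicle at 2 min (log2 fold change -1.64 ± 0.28, limma adjusted p = 0.021), the largest fall among the called positions of the region. Among called positions with a mean of at least 10 RPM, the next largest falls at 2 min were at nt 1413, nt 139, nt 1033 and nt 849, with log2 fold changes of -1.62, -1.40, -1.39 and -1.31. These are low positions: nt 139, a guanosine, had 142 ± 52.1 with BMH-21 and 365 ± 45.7 with vehicle, and nt 849, a cytidine, had 30.4 ± 10.3 with BMH-21 and 74.7 ± 9.99 with vehicle. At 16 min nt 139, nt 1033 and nt 849 did not pass, with log2 fold changes of -0.51, -1.45 and -0.23. The groups still did not overlap at nt 139 and nt 1033, and they overlapped at nt 849.

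At 16 min few positions of the region changed, and nearly all called changes were losses. On the region scale limma called 29 positions lower (1.74%) and 1 higher, against 8.98% lower and 0.0596% higher of 6707 positions of the gene, whose spacers had a median log2 fold change of -2.56. Over the gene regions alone 1.80% of 5347 positions were lower, close to the share of the region. The region's median was 0.037. On the 35S scale 40 were lower and 1 higher, against 11.7% and 0.104% over the gene. On the region scale the calls numbered 14, 13 and 19 without BMH-21 replicates 1, 2 and 3, and 10, 22 and 11 without vehicle replicates 1, 2 and 3. The 29 called losses lay in 28 separate runs, and so few calls would mostly stand apart in any case. They had a median log2 fold change of -1.12 and a largest of -2.35.

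Some of the losses at 16 min had been called at 2 min. Of the positions called lower, 20 were so at both times, which is 69.0% of the 29 at 16 min and 11.2% of the 178 at 2 min. This overlap was not counted in the other parts of the gene, so it cannot be called particular to the region. None was called higher at both times, and 1 was called in opposite directions. Across all 1668 positions the log2 fold changes of the 2 times were nearly unrelated (Spearman 0.027). At 17 of the 20 the fall was larger at 16 min, with a median log2 fold change of -0.95 at 2 min and -1.23 at 16 min. The 20 were chosen by passing at both times, and fewer positions of the gene passed at 16 min. That choice can favour larger falls at 16 min, and the difference between the times was not tested. The positions directly before and after the 20 had medians of -0.44 and -0.13 at 2 and 16 min.

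The adenosine at nt 201 had the largest fall of the 5 named from these 20. At 16 min it had 471, 384 and 409 region RPM with BMH-21 and 2207, 1598 and 2102 with vehicle (log2 fold change -2.21 ± 0.19, limma adjusted p = 0.0026, and it passed under all 15 alternatives). An adenosine at nt 611 had 766, 518 and 714 with BMH-21 and 1246, 1620 and 1627 with vehicle at 2 min, and 448, 456 and 547 with BMH-21 and 1817, 1755 and 1741 with vehicle at 16 min. Its log2 fold change was -1.18 at 2 min and -1.88 ± 0.15 at 16 min (adjusted p = 0.0023). At 16 min both positions lay below the even level in every BMH-21 library and well above it in every vehicle library.

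The guanosine at nt 1413 was a low position in either treatment, with 50.9, 52.5 and 70.7 region RPM with BMH-21 and 172, 218 and 207 with vehicle at 16 min (log2 fold change -1.77 ± 0.20, limma adjusted p = 0.0056). At nt 95, an adenosine, the libraries had 164, 168 and 268 with BMH-21 and 591, 607 and 750 with vehicle (-1.73 ± 0.25, adjusted p = 0.012). At nt 285, also an adenosine, they had 674, 454 and 510 with BMH-21 and 1829, 1383 and 2168 with vehicle (-1.71 ± 0.25, adjusted p = 0.012). The groups did not overlap at any of the 5 positions at either time. At 16 min nt 201, nt 1413 and nt 611 passed under all 15 alternatives, and nt 95 and nt 285 under 13 of 15.

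**Figure D5:**
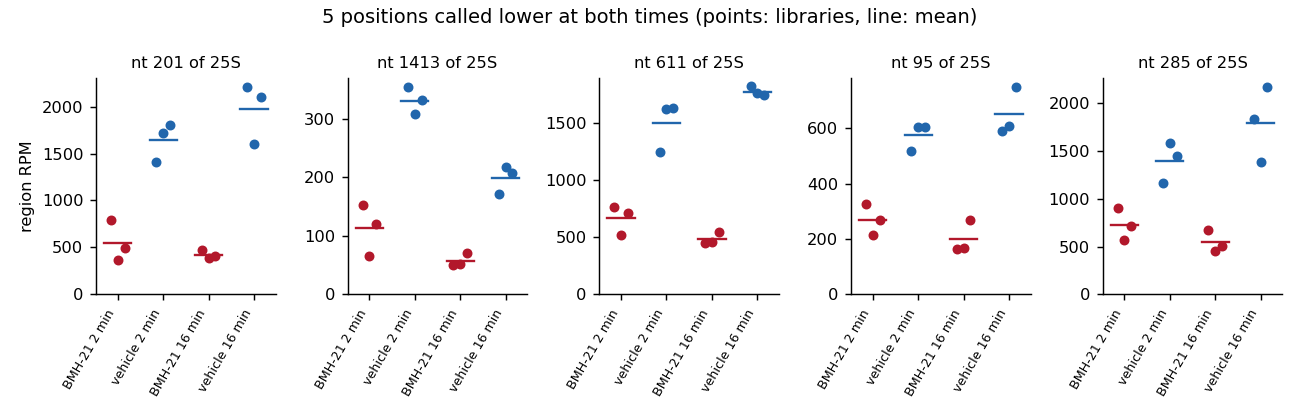
Level of 5 positions that were called lower at both times, in region RPM, with 1 point per library and a line at the mean of 3. In every panel all BMH-21 libraries lie below all vehicle libraries of the same time, as at nt 201, where they span 384 to 471 with BMH-21 and 1598 to 2207 with vehicle at 16 min.

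A further 2 of the 5 largest called losses at 16 min lay inside the trough. The cytidine at nt 650 had 19.8, 31.3 and 18.6 region RPM with BMH-21 and 138, 85.2 and 144 with vehicle at 16 min (log2 fold change -2.35 ± 0.30, limma adjusted p = 0.0088), and was also called lower at 2 min (-1.60, adjusted p = 0.033). The adenosine at nt 653 had 49.5, 58.0 and 33.5 with BMH-21 and 206, 224 and 185 with vehicle at 16 min (-2.13 ± 0.24, adjusted p = 0.0055), while at 2 min its groups overlapped. No other position of the trough passed at 16 min, though 11 of its 12 had a negative log2 fold change and their median was -0.87.

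The 20 positions lower at both times had purines as the last nucleotide added in 15 cases, 8 adenosines and 7 guanosines, where 56.8% of the region's positions are purines. The next base was G at 10 of them, U at 9, C at 1 and A at 0. Several shared an ending, and this was noticed after their values were seen, so it is given as a description. The search was on the RNA strand only. The letters GGA, the A being the last nucleotide added, followed by U stand at 10 positions of the region (0.600%). Their log2 fold changes at 2 min ran from -1.18 to -0.19, and those at 16 min from -1.88 to -0.05, so that all 10 were negative at both times. Their medians were -0.64 at 2 min and -0.63 at 16 min, against -0.22 and 0.037 over the region. The upper quartile of all region positions was 0.037 at 2 min and 0.24 at 16 min. Limma called 7 of the 10 lower at 2 min and 3 at 16 min. These 3 are among the 20 from which the ending was read, so their falls at both times were given in advance. They are also among the 7 called at 2 min and enter the medians of both times. In the 3′ interior 9 positions with GGA followed by U (0.540%) had medians of -0.28 and -0.20, and in the 18S interior 8 (0.460%) had medians of -0.51 and -0.30. These values are also scaled to the sum of the region. On that scale all positions had medians of -0.07 and 0.028 in the 3′ interior and -0.24 and 0.031 in the 18S interior. In the region, GGA followed by G (10 positions) had medians of -0.44 at 2 min and -0.03 at 16 min, GGA followed by C (8 positions) -0.41 and -0.04, and GGA followed by A (16 positions) -0.19 and 0.035. In the 18S interior GGA followed by C had a median of -0.55 at 2 min, below that of GGA followed by U. Another ending chosen after the values were seen, GCGA followed by G, stands at 5 positions of the region. Its medians were -0.57 at 2 min and -0.79 at 16 min, and limma called 2 of the 5 lower at 2 min and 3 at 16 min. Both positions called at 2 min, nt 95 and nt 677, are among the 20, so their falls were given in advance. They are also in the medians and in the 16-min count. In the 18S interior this ending stands at 1 position, with log2 fold changes of -0.81 at 2 min and -1.38 at 16 min, and in the 3′ interior at 0.

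Over both times together, the share of the signal by the last nucleotide added passed the threshold in 3 of 4 bases. The 4 shares of a library sum to the whole, so they are not independent. Reads that ended in A made up 34.6%, 33.6% and 33.3% of the region's signal in BMH-21 replicates 1 to 3 and 35.8%, 36.7% and 35.5% in the vehicle replicates at 16 min. At 2 min the A shares were 35.6%, 34.7% and 35.6% with BMH-21 and 35.7%, 35.9% and 35.8% with vehicle, a small difference without overlap. Over both times the share fell by 1.32 percentage points (exact permutation test, two-sided, p = 0.005, adjusted over 4 bases 0.010). Adenosine is 27.5% of the region's bases, so these reads were in excess of its base composition in both treatments.

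Reads that ended in U rose. Their share was 25.6% ± 0.25 with BMH-21 and 23.8% ± 0.090 with vehicle at 2 min, and 24.7% ± 0.43 with BMH-21 and 23.7% ± 0.76 with vehicle at 16 min (SD, n = 3 each), a gain of 1.41 percentage points over both times (exact permutation test, adjusted p = 0.010). Reads that ended in C gained 1.01 points (adjusted p = 0.020), with 19.0% ± 0.52 with BMH-21 and 17.9% ± 0.30 with vehicle at 2 min and an overlap at 16 min. Reads that ended in G had 20.1% ± 0.57 with BMH-21 and 22.5% ± 0.36 with vehicle at 2 min, and 23.7% ± 0.72 with BMH-21 and 23.5% ± 0.81 with vehicle at 16 min, which did not pass over both times (exact permutation test, -1.11 points, adjusted p = 0.085). It passed without BMH-21 replicate 3 at 16 min (-1.30 points, adjusted p = 0.045) and without vehicle replicate 1 at 16 min (-1.28 points, 0.040).

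The next base, chosen after the shares were seen, divided the fall of the A share. At 16 min A followed by U held 7.19% ± 0.26 with BMH-21 and 8.40% ± 0.25 with vehicle, and A followed by G held 8.22% ± 0.17 with BMH-21 and 9.18% ± 0.15 with vehicle. A followed by A held 14.6% ± 0.37 with BMH-21 and 14.6% ± 0.78 with vehicle. Every adenosine among the positions called lower at both times was followed by U or G, so those positions are part of these falls. The falls without them were not tested.

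The sequence around the highest positions was compared as the base content of the top 42 positions of each library, with the last nucleotide added at -1. Of the 10 bases up to -1, 27.1% ± 0.41 were U with BMH-21 and 23.97% ± 0.73 with vehicle at 2 min, and 24.7% ± 1.72 with BMH-21 and 23.9% ± 2.94 with vehicle at 16 min. Of the same bases 35.2% ± 0.60 were G with BMH-21 and 38.3% ± 1.04 with vehicle at 2 min, and 34.3% ± 1.33 with BMH-21 and 34.1% ± 1.79 with vehicle at 16 min. Neither passed for both times together (adjusted p = 0.20 for each in a two-sided exact permutation), nor did G downstream at +1 to +30 (adjusted p = 0.99). The groups of U and of G upstream did not overlap at 2 min. With the top 1% of positions the BMH-21 minus vehicle difference was 4.02 points for U upstream and -5.98 points for G upstream (adjusted p = 0.022 for each) and 1.503 points for G downstream (adjusted p = 0.045). With the top 5% and 10% none of the 3 passed: U upstream differed by 1.06 and 0.96 points (adjusted p = 0.36 and 0.43 by exact permutation), G upstream by -0.46 and -0.23 points (0.75 and 0.79) and G downstream by 0.087 and -0.063 points (0.75 and 0.79). Without vehicle replicate 3 at 16 min and with the top 2.5%, U upstream passed (2.80 points, adjusted p = 0.030).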

How the data were processed

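The authors trimmed reads (cutadapt 1.12), aligned them (STAR 2.7.1a) to R64-1-1 and assigned 5′ read ends to the 35S gene. They deposited RPM values per library, scaled to the 35S reads, in a table for each time, with means, medians, confidence limits, ratios and p-values, which were not used. Merging of reads by molecular identifier is not stated. Of the per-library columns, 0 were left out. Reads were recovered as whole numbers for 99.9% to 100% of the region's values, within 0.01 of a read.

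Positions with a mean of at least 1 RPM were tested within each time with limma 3.58.1 (R 4.3.3) on log2(value + 1), over the whole 35S gene, with Benjamini-Hochberg adjustment at 0.05. Fold changes on this scale understate low positions. Windows of 100 nt were tested likewise. Other values were compared by exact permutation tests. Alternatives covered pseudocount, filter, scaling, limma's trend, edgeR 4.0.16 on recovered reads, window size, top share, the 10 highest positions left out, the replicate block and each library left out. The p-values measure the spread between these libraries.

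The text names the 10 highest positions, the 5 most raised and 5 most lowered called positions at each time with a mean of at least 10 RPM, and the 5 most changed of those called alike at both times. The comparison with 18S was added after the data were seen. The region, lists and tests were chosen with earlier results of these data known.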

Additional observations from a re-analysis of the deposited data

Results flagged for a closer look

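At a few places BMH-21 lay wholly on one side of vehicle at 2 min and wholly on the other at 16 min, and the difference between the times was not tested. The uridine at nt 1494 (position 4745 of the 35S gene) was called in opposite directions, with log2 fold changes of -0.53 at 2 min and 0.65 at 16 min (limma adjusted p = 0.040 and 0.048, 0.031 to 0.16 and 0.028 to 0.16 over 15 alternatives each). It had 214, 256 and 230 region RPM with BMH-21 and 356, 353 and 300 with vehicle at 2 min, and 430, 507 and 443 with BMH-21 and 289, 294 and 292 with vehicle at 16 min. The adenosine at nt 1546 (position 4797), one of the 10 highest, had log2 fold changes of 0.43 and -0.32 at 2 and 16 min, with neither past the threshold. Window 15, nt 1431 to 1530, had -0.12 at 2 min and 0.10 at 16 min, with neither past the threshold. The median position of the region differed by -61.3 region RPM at 2 min (359 ± 31.02 with BMH-21 and 420 ± 13.4 with vehicle) and by 13.7 at 16 min (456 ± 14.4 with BMH-21 and 442 ± 2.85 with vehicle).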

How the results depend on the processing

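The fall of the region against the 3′ interior held without any 1 library (-0.15 to -0.12, log2), but without the 10 highest positions of each interior it shrank to -0.088 (exact permutation p = 0.025), with -0.029 at 16 min (p = 0.5). Without any 1 library the calls also held for the base shares of A (-1.51 to -1.15 points), U (1.20 to 1.57) and C (0.83 to 1.20). The log2 difference in the share of the 35S signal was 0.0012, but as a share of the gene regions the log2 difference was -0.048 (p = 0.025, exact permutation test) and as a share of 25S -0.085 (p = 0.005). Counts of called positions varied most. The replicate numbers did not pair the libraries (correlations of same-numbered libraries -0.33 to 0.31), and with the replicate block limma called 0 positions (region scale) and 40 (35S scale) at 2 min, 13 and 23 at 16 min, and 0 windows at 2 min. Leaving out 1 library gave 0 to 302 calls (region scale) and 0 to 337 (35S scale) at 2 min, 10 to 22 and 14 to 37 at 16 min, and 0 to 3 windows at 2 min. At 16 min limma with trend gave 51 and edgeR 50 (region scale), while a pseudocount of 0.1 gave 23 and median ratio scaling 26 (35S scale). Median ratio scaling moved the region's median log2 fold change from -0.22 to 0.039 at 2 min and from 0.037 to 0.14 at 16 min. Windows of 50 nt gave 5 calls at 2 min. The ratio to 18S ran from 0.068 to 0.092 with 1 library left out, the G share from -1.30 to -0.89 points (adjusted p 0.040 to 0.16) and U upstream from 1.37 to 2.80 points (0.030 to 0.43). With the top 1% of positions U upstream was 4.02, G upstream -5.98 and G downstream 1.503 points, the last with adjusted p = 0.045 (against -0.026 with the top 2.5%). Of the named positions, 107 results under single alternatives no longer passed, 8 passed newly and 664 stayed on their side of the threshold, 27 of which changed sign without passing under either setting. The cause was not tested. Depth limits the low positions most, since the trough rests on as few as 62 reads in a library.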
